A study of Mus musculus with 14 samples.

Results

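The genes described here are 10 genes of the T helper 1 (Th1) programme: Ifng, Tbx21, Eomes and Runx3, and the receptor genes Il12rb1, Il12rb2, Il18r1, Il18rap, Ifngr1 and Ifngr2. They were chosen by gene symbol for their known role, with earlier results of these data known. All 10 were found among the 20875 genes listed for culture and the 18855 genes listed for treated mice, and all 10 were expressed above the minimum needed to be tested in both. RNA was sequenced from mouse cells labelled as primary CD4 T cells in 14 libraries, all of strain C57BL/6. In culture, wild-type lymph node cells received antibodies to CD3 and CD28 plus TRAIL (n = 3), the same antibodies alone (n = 3) or medium (n = 2). TRAIL is the death receptor ligand encoded by Tnfsf10, and antibodies to CD3 and CD28 replace the antigen and costimulatory signals that activate a T cell. The labels give 1 mg/ml for the antibodies and 10 ug/ml for TRAIL, which are printed as labelled, and no time of harvest. In the mouse experiment, spleen cells came from Lck-Cre TRAIL-R f/f mice given TRAIL (n = 2), TRAIL-R f/f mice given TRAIL (n = 3) and a TRAIL-R f/f mouse library given vehicle (n = 1). Both alleles of the TRAIL receptor gene are floxed in all 3 mouse groups as labelled, although the bracketed name of the vehicle library reads B6_spleen. Lck-Cre places Cre under a promoter of the T lineage, so that other cells keep the floxed gene. The labels do not say whether these mice had experimental autoimmune encephalomyelitis, the model named in the study's title, give no age, and do not say whether libraries of a group came from separate animals or cultures. All p-values therefore measure the spread between libraries.

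Th1 cells are the helper T cells that secrete interferon gamma, the product of Ifng, and activate macrophages. Tbx21 encodes T-bet, the transcription factor that defines the lineage, and it binds Ifng together with Runx3 (Eomes encodes a related T-box factor best known from cytotoxic T cells and NK cells). Il12rb1 and Il12rb2 encode the chains of the interleukin 12 receptor, Il18r1 and Il18rap those of the interleukin 18 receptor, and both cytokines together drive interferon gamma secretion. Ifngr1 encodes the ligand-binding chain and Ifngr2 the signalling chain of the interferon gamma receptor.

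The start regions of 4 of these genes are shown to cover the different behaviours in the results. Ifng kept a larger share of its rise with TRAIL than Tbx21 and Il12rb2, which moved alike, did of theirs. Il18rap moved the opposite way. RefSeq start regions on GRCm38.p6, each 300 bases long with 250 bases before the gene start and 50 after it, were matched for 9 of the 10 genes, all but Il12rb1, and gave 12 regions because Runx3 and Il18r1 have more than 1 start. The 4 lie at chr10:118440796-118441095 on the plus strand for Ifng, chr11:97115282-97115581 on the minus strand for Tbx21, chr6:67376139-67376438 on the minus strand for Il12rb2 and chr1:40515112-40515411 on the plus strand for Il18rap, and they are written in the direction of the gene. Capitals mark every match of the 6 motifs searched. These were the interferon gamma activated site TTCNNNGAA, the T-box half-site AGGTGTGA, the AP-1 site TGANTCA, the RUNX site TGTGGT and the core of the interferon-stimulated response element on both strands, and TATAAA on the gene's strand.
Ifng: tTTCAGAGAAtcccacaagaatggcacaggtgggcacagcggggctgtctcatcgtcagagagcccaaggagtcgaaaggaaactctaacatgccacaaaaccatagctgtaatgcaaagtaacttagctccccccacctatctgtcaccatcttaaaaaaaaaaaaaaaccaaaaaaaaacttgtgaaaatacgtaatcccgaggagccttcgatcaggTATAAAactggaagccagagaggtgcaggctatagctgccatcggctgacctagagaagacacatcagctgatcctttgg
Tbx21: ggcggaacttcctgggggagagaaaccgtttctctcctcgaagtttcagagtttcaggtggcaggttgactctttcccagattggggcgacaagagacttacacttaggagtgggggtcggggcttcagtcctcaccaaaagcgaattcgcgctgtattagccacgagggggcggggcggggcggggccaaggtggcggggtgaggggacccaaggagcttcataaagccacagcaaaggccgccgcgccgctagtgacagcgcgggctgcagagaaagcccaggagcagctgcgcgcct
Il12rb2: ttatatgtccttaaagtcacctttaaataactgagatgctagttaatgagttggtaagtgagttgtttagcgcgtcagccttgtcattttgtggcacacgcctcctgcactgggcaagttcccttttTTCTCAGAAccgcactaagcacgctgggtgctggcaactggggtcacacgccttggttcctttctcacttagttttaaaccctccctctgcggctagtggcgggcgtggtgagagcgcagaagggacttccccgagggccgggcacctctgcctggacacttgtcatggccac
Il18rap: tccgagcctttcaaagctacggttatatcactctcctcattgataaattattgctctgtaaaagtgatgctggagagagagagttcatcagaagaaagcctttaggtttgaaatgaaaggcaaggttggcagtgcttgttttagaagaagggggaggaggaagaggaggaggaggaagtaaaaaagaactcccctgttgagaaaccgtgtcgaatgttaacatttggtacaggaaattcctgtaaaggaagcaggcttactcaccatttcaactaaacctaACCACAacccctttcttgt

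The Ifng region held TATAAA 30 bases before the start and the letters TTCAGAGAA at the far end of the region, 249 bases before the start. Il12rb2 held TTCTCAGAA 123 bases before its start, while the Tbx21 region matched none of the 6 motifs. Il18rap held the reverse complement of the RUNX letters 32 bases into the gene. Over all 32544 RefSeq start regions of this length, 8.33% held TTCNNNGAA, 8.28% TATAAA, 16.7% the RUNX letters, 7.79% the AP-1 letters, 3.45% the response element core and 1.28% the T-box half-site. No region of the 9 genes held the T-box half-site or the AP-1 letters. No matches of different motifs overlapped in these regions, and a match is a description of the letters alone. Within GENCODE M21 on GRCm38, Il18r1 and Il18rap are neighbours on chromosome 1, on the same strand and 14507 bases apart. Il12rb2 overlaps 6419 bases of Serbp1 on the opposite strand, Eomes 574 bases of Gm33460 and Runx3 865 bases of Gm16224, both antisense, and Ifng 2722 bases of Gm49751 on its own strand. The strand used in read counting is not given in the sources used here, so reads from these overlaps cannot be told apart.

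Levels are in TPM, read counts divided by gene length and scaled to a sum of 1000000 per library, and the libraries held 19.2 to 56.9 M reads assigned to genes (1 M is 1000000). A gene was called changed when its adjusted p in limma, fitted across all genes on log2(TPM + 1), was under 0.05, and every log2 fold change is on that scale. CD3/CD28 replicate 1 stood apart from the other libraries of its group: a mean chi-square per gene of 91.5 and 77.4 separated it from replicates 2 and 3, against 3.12 between those. The 8 CD4 T cell markers summed to 2626 to 2690 TPM with CD3/CD28 plus TRAIL, 2949 to 3164 TPM with CD3/CD28 and 3126 to 3149 TPM in medium. Not every marker of this list moved like the sum. Cd4 read 585 to 596 TPM with CD3/CD28 plus TRAIL, 259 to 360 TPM with CD3/CD28 and 676 to 689 TPM in medium. Cd3e read 448 to 478, 368 to 385 and 514 to 541 TPM in the same order. The remaining markers of the list are not given singly here. Markers of other cells were also read in culture and moved with the groups: the 10 B cell markers summed to 1366 to 1393 TPM with CD3/CD28 plus TRAIL, 262 to 317 TPM with CD3/CD28 and 1577 to 1617 TPM in medium. The 12 macrophage and monocyte markers summed to 477 to 553, 56.0 to 63.5 and 1226 to 1319 TPM in the same order, and the 7 NK cell markers to 67.0 to 68.4, 30.5 to 36.7 and 132 to 157 TPM. Within the NK cell list, Klrd1 read 45.9 to 48.2, 18.7 to 23.2 and 109 to 133 TPM in the same order. Ncr1 read 8.64 to 10.6, 2.45 to 2.53 and 6.76 to 8.21 TPM, so that it was highest with TRAIL, unlike the sum. The other NK cell markers are not given singly here. No marker of these 4 lists was at 0 in any culture library. In libraries made from many cells, fewer cells of a type and less RNA per cell cannot be told apart.

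**Figure D1:**
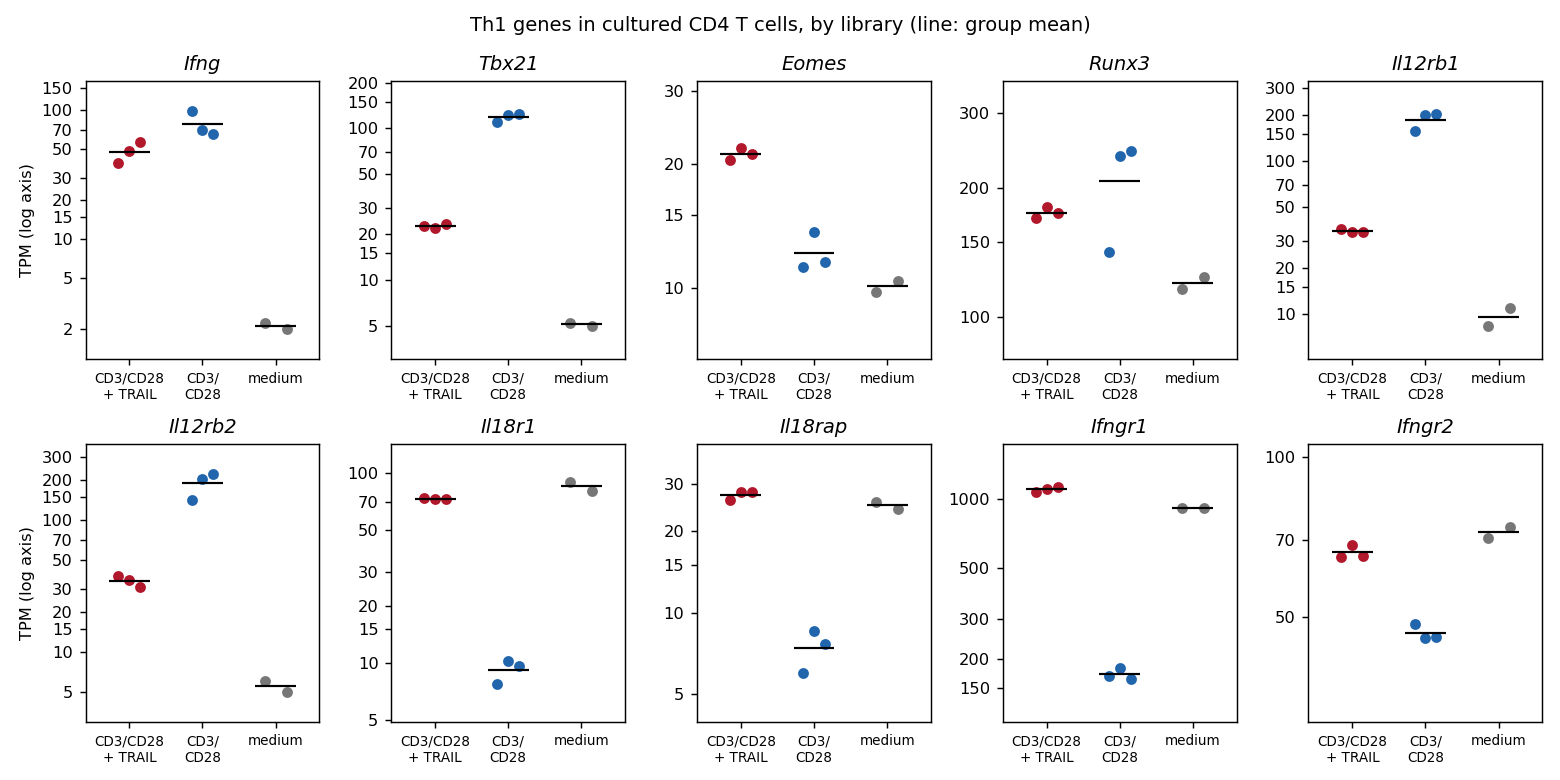
TPM of the 10 Th1 genes in each of the 8 culture libraries, on log axes that differ between panels, with a line at each group mean. Ifng, Tbx21, Il12rb1 and Il12rb2 are highest with CD3/CD28, whereas Il18r1, Il18rap, Ifngr1 and Ifngr2 are lowest there.

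With CD3/CD28 against medium, 10 of the 10 Th1 genes passed the threshold, 6 higher and 4 lower. Among all 14035 genes tested, 76.5% passed, 27.5% higher and 49% lower, so that a call by itself sets no gene apart in this comparison, and the size of the change carries the description. The median log2 fold change was 0.49 over the 10 genes and −0.32 over all genes tested. The cytokine Ifng, the regulator Tbx21 and both chains of the interleukin 12 receptor had the largest changes of the 10. With CD3/CD28 plus TRAIL against CD3/CD28, 9 of the 10 passed, 4 lower and 5 higher, where 76.7% of all genes passed, 28.6% lower and 48.1% higher. With CD3/CD28 plus TRAIL against medium, 6 of the 10 passed, all higher, where 17.2% of all genes passed and 7.25% passed higher. Without CD3/CD28 replicate 1, 9 passed, 7 higher and 2 lower (Il18r1, adjusted p 0.015, and Ifngr2, adjusted p 0.0466), and with only these groups in the fit 8 passed, 7 higher and 1 lower. Of all genes, 9.93% passed lower with CD3/CD28 plus TRAIL against medium. All 3 comparisons draw on the same 8 libraries, each pair of them sharing a group.

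Ifng rose strongly with stimulation and fell to a level still far above medium with TRAIL. It had 38.7, 48.4 and 56.3 TPM with CD3/CD28 plus TRAIL, 99.2, 70.8 and 65.3 TPM with CD3/CD28, and 2.255 and 2.001 TPM in medium. The 3 groups did not overlap, but the gap between the highest library with TRAIL and the lowest without it was small, and the CD3/CD28 library that stood apart was the highest of all. The mean was 47.8 ± 8.8 TPM with CD3/CD28 plus TRAIL against 78.5 ± 18.2 TPM with CD3/CD28 (SD, n = 3 each), a log2 fold change of −0.70 ± 0.18 (SE) with an adjusted p of 0.0077. Without CD3/CD28 replicate 1 the change was −0.52 with an adjusted p of 0.00761. Against medium, Ifng was 36.9-fold higher by mean TPM with CD3/CD28 and 22.5-fold higher with CD3/CD28 plus TRAIL, the medium levels resting on 31 and 25 reads, with log2 fold changes of 4.64 ± 0.20 and 3.95 ± 0.20 and adjusted p-values of 3.42e-07 and 1.33e-05.

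Tbx21, which encodes T-bet, lost far more of its level with TRAIL. It had 22.8, 22.1 and 23.4 TPM with CD3/CD28 plus TRAIL, 111, 122 and 125 TPM with CD3/CD28, and 5.25 and 4.97 TPM in medium. Libraries of a group lay close together and the groups were well apart. The mean of 22.8 ± 0.7 TPM with CD3/CD28 plus TRAIL was 5.24-fold below the 119 ± 7 TPM with CD3/CD28 (SD, n = 3 each; log2 fold change −2.34 ± 0.07, adjusted p 7.49e-08). It remained 4.46-fold above medium (log2 fold change 1.96 ± 0.08, adjusted p 5.06e-06).

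The related factor Eomes was highest with TRAIL, unlike Tbx21. Its libraries read 20.4, 21.8 and 21.2 TPM with CD3/CD28 plus TRAIL, 11.3, 13.6 and 11.6 TPM with CD3/CD28, and 9.79 and 10.4 TPM in medium. Every library with TRAIL exceeded every other library. The NK cell marker Ncr1 was also highest with TRAIL, while the NK cell marker sum was highest in medium. The part of NK cells in the Eomes level was not tested. The log2 fold change was 0.76 ± 0.09 against CD3/CD28 (adjusted p 8.08e-05) and 1.00 ± 0.10 against medium (adjusted p 0.000397). With CD3/CD28 against medium the change was 0.24 ± 0.10 (adjusted p 0.0472), and this call did not hold in 10 of the alternative settings, among them the removal of either medium library (adjusted p 0.197 and 0.0923).

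Runx3, the partner of T-bet at Ifng, was well expressed in every group and its comparison with TRAIL turned on 1 library. It had 171, 181 and 175 TPM with CD3/CD28 plus TRAIL, 142, 238 and 245 TPM with CD3/CD28, and 116 and 124 TPM in medium. CD3/CD28 replicate 1 was below all libraries with TRAIL, and replicates 2 and 3 above them. The log2 fold change with TRAIL against CD3/CD28 was −0.20 ± 0.19 (adjusted p 0.344), and −0.46 ± 0.04 (adjusted p 1.31e-05) without replicate 1. The authors' deposited table gives −0.52 with an adjusted p of 0.00884 for this comparison. After scaling by the median of ratios over genes the change was −0.48 (adjusted p 0.0193), and after scaling to the CD4 T cell markers it was 0.01 (adjusted p 0.96). Stimulation against medium gave 0.74 ± 0.21 (adjusted p 0.0116), and 0.70 (adjusted p 0.0683) without medium replicate 1. With CD3/CD28 plus TRAIL against medium the change was 0.54 ± 0.21 (adjusted p 0.123), and it passed the threshold without CD3/CD28 replicate 1 (adjusted p 4.34e-05).

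**Figure D2:**
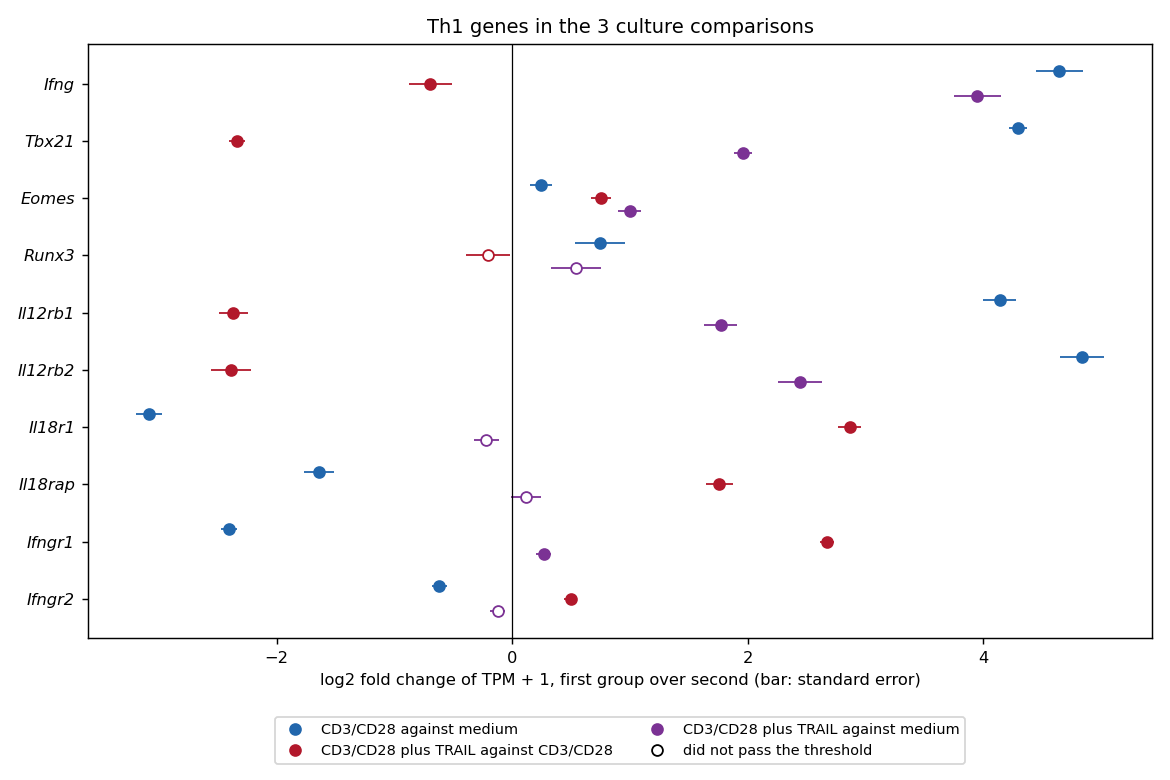
Log2 fold changes of the 10 Th1 genes in the 3 culture comparisons, with standard errors, filled where the adjusted p was under 0.05. Tbx21, Il12rb1 and Il12rb2 lie between −2.34 and −2.39 with TRAIL against CD3/CD28, Ifng at −0.70.

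Both chains of the interleukin 12 receptor followed Tbx21. Il12rb1, the chain shared with the interleukin 23 receptor, had 36.1, 34.5 and 34.3 TPM with CD3/CD28 plus TRAIL, 156, 200 and 203 TPM with CD3/CD28, and 8.35 and 10.9 TPM in medium. Il12rb2, the chain specific to interleukin 12, had 37.8, 34.9 and 31.3 TPM with CD3/CD28 plus TRAIL, 141, 204 and 222 TPM with CD3/CD28, and 6.05 and 5.03 TPM in medium. For both genes the CD3/CD28 library that stood apart was the lowest of its group, and no groups overlapped. Il12rb1 was 5.32-fold lower with CD3/CD28 plus TRAIL than with CD3/CD28 (log2 fold change −2.37 ± 0.12, adjusted p 9.15e-07). Il12rb2 was 5.45-fold lower (log2 fold change −2.39 ± 0.17, adjusted p 4.66e-06). Against medium, the log2 fold changes with CD3/CD28 were 4.14 ± 0.14 for Il12rb1 and 4.84 ± 0.19 for Il12rb2 (adjusted p 1.15e-07 and 1.97e-07). With CD3/CD28 plus TRAIL against medium they were 1.77 ± 0.14 and 2.45 ± 0.19 (adjusted p 0.000134 and 0.00012).

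The interleukin 18 receptor chains moved the other way, although interleukin 12 is known to raise them in Th1 cells. Il18r1, the ligand-binding chain, had 73.5, 72.5 and 72.6 TPM with CD3/CD28 plus TRAIL, 7.77, 10.2 and 9.59 TPM with CD3/CD28, and 89.7 and 80.5 TPM in medium. Il18rap, the accessory chain that signals, had 26.02, 27.87 and 27.88 TPM with CD3/CD28 plus TRAIL, 6.00, 8.57 and 7.68 TPM with CD3/CD28, and 25.7 and 24.3 TPM in medium. In both, the CD3/CD28 libraries were low and the other groups lay near each other. Stimulation against medium lowered Il18r1 by a log2 fold change of −3.08 ± 0.11 and Il18rap by −1.64 ± 0.13 (adjusted p 1.38e-07 and 8.58e-06). With CD3/CD28 plus TRAIL against CD3/CD28 they rose by 2.87 ± 0.10 and 1.76 ± 0.12 (adjusted p 1.19e-07 and 3.19e-06). Against medium with TRAIL present, Il18r1 changed by −0.22 ± 0.11 (adjusted p 0.22) and Il18rap by 0.12 ± 0.13 (adjusted p 0.597), and neither passed. Without CD3/CD28 replicate 1, which enters that test only through the shared variance, Il18r1 passed (adjusted p 0.015).

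Ifngr1, the ligand-binding chain of the interferon gamma receptor, was the most abundant of the 10 genes outside the CD3/CD28 group. It had 1067, 1101 and 1129 TPM with CD3/CD28 plus TRAIL, 169, 183 and 164 TPM with CD3/CD28, and 915 and 911 TPM in medium. It was 6.39-fold higher with CD3/CD28 plus TRAIL than with CD3/CD28 (log2 fold change 2.67 ± 0.06, adjusted p 2.67e-08), and 5.31-fold lower with CD3/CD28 than in medium (log2 fold change −2.40 ± 0.07, adjusted p 5.45e-08). With CD3/CD28 plus TRAIL against medium Ifngr1 was 0.27 ± 0.07 higher on the log2 scale (adjusted p 0.0272), a call that was lost in 7 alternative settings, including the removal of any library of those 2 groups (adjusted p 0.0616 to 0.146). Ifngr2, the signalling chain, moved less. It had 65.1, 68.5 and 65.3 TPM with CD3/CD28 plus TRAIL, 48.6, 45.7 and 46.0 TPM with CD3/CD28, and 70.6 and 73.9 TPM in medium. Its log2 fold changes were 0.50 ± 0.06 with TRAIL against CD3/CD28 (adjusted p 8.04e-05) and −0.62 ± 0.06 with CD3/CD28 against medium (adjusted p 4.06e-05). In the authors' deposited table, Ifngr2 changed by 0.19 with TRAIL against CD3/CD28 with an adjusted p of 0.0625, so its call depends on the processing. The B cell and macrophage marker sums were lowest with CD3/CD28, as were these 4 receptor genes. With CD3/CD28 plus TRAIL the marker sums were lower than in medium. The means of Il18r1 and Ifngr2 were also lower there, those of Il18rap and Ifngr1 higher, and only the change of Ifngr1 passed. The part of the marked cells in the receptor values was not tested.

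The share of each stimulation rise that remained with TRAIL was taken as the mean TPM with CD3/CD28 plus TRAIL minus medium, divided by CD3/CD28 minus medium. Ifng kept 59.9 ± 10.6% of its rise (SE), whereas Tbx21 kept 15.5 ± 0.7%, Il12rb1 14.4 ± 1.4% and Il12rb2 15.9 ± 2.4%. Without CD3/CD28 replicate 1 these shares were 69.3%, 14.9%, 13.2% and 14.0%. Runx3 kept 62.7 ± 23.96%, or 45.6% without that library, and Eomes, whose rise without TRAIL was small, reached 532 ± 200.7% of it, 826% without CD3/CD28 replicate 2 and 229% after scaling by the median of ratios. On the log2 scale the shares were 85.0% for Ifng, 45.6% for Tbx21, 42.8% for Il12rb1 and 50.6% for Il12rb2, and Ifng was again the highest of the 4. Scaling by the median of ratios gave 48.8% for Ifng, 12.9% for Tbx21, 12.01% for Il12rb1 and 13.3% for Il12rb2.

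Most strongly induced genes lost nearly all of their rise. Over the 1523 genes called higher with CD3/CD28 by a log2 fold change of at least 1, the median share that remained was 7.83%, with quartiles of 1.82% and 16.2%, and 4.4% of them kept more than 50%. Ifng's share was above that of 96.7% of these genes, with 49 genes higher. The shares of Tbx21, Il12rb1 and Il12rb2 were above those of 72.5%, 70.1% and 73.9%. These positions are for shares on TPM. On the log2 scale the median share over the 1523 genes was 14.2%. For the genes that fell with stimulation, the same ratio gives the share of the fall that remained: 16.1 ± 5.1% for Il18r1, −12.7 ± 5.9% for Il18rap and −25.03 ± 2.46% for Ifngr1, the negative values marking levels above medium. The median over all 3577 genes that fell by a log2 fold change of at least 1 was 24.98%. Ifngr2, whose fall was smaller, kept 23.4 ± 6.7% of it. These shares describe the libraries and were not tested.

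**Figure D3:**
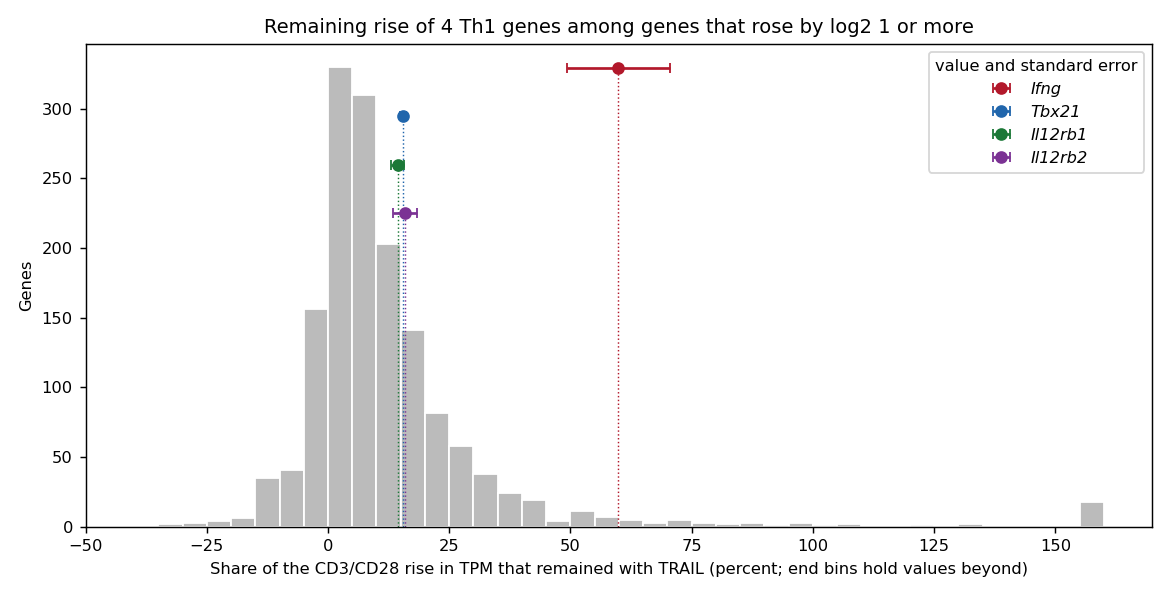
Share of the CD3/CD28 rise in TPM that remained with TRAIL, as a histogram over the 1523 genes that rose by log2 1 or more, in bins of 5 percentage points, with Ifng, Tbx21, Il12rb1 and Il12rb2 marked with standard errors. Ifng, at 59.9%, lies in the upper tail, and the other 3 at 14.4% to 15.9%.

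Ratios of genes within a library do not depend on how the library is scaled. Ifng over Tbx21 was 1.70, 2.20 and 2.40 with CD3/CD28 plus TRAIL, 0.896, 0.578 and 0.524 with CD3/CD28, and 0.429 and 0.403 in medium. The ratio was thus above 1 in every library with TRAIL and in no other culture library. Eomes over Tbx21 was 0.896, 0.989 and 0.904 with CD3/CD28 plus TRAIL, 0.102, 0.111 and 0.0930 with CD3/CD28, and 1.86 and 2.09 in medium. Differences between groups were taken on the log2 ratio of TPM + 1, which can depend on scaling. Between CD3/CD28 plus TRAIL and CD3/CD28 this log2 ratio differed by 1.64 for Ifng and Tbx21 and by 3.09 for Eomes and Tbx21, with no overlap. With a pseudocount of 0.1 in place of 1 these differences were 1.68 and 3.18. In an exact two-sided permutation test of 3 against 3 libraries each p was 0.1, the smallest this design allows, and 0.125 after Benjamini-Hochberg adjustment over the 5 pairs compared. For the chains of the interleukin 12 receptor no shift was seen beyond the spread: Il12rb2 over Il12rb1 was 1.05, 1.01 and 0.914 with CD3/CD28 plus TRAIL and 0.902, 1.02 and 1.10 with CD3/CD28, a difference of −0.02 on the log2 scale (exact p 0.9). Il18rap over Il18r1 differed by −1.11 and Ifngr2 over Ifngr1 by −2.17 (exact p 0.1 each), Il18r1 and Ifngr1 having risen by more than their partner chains.

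**Figure D4:**
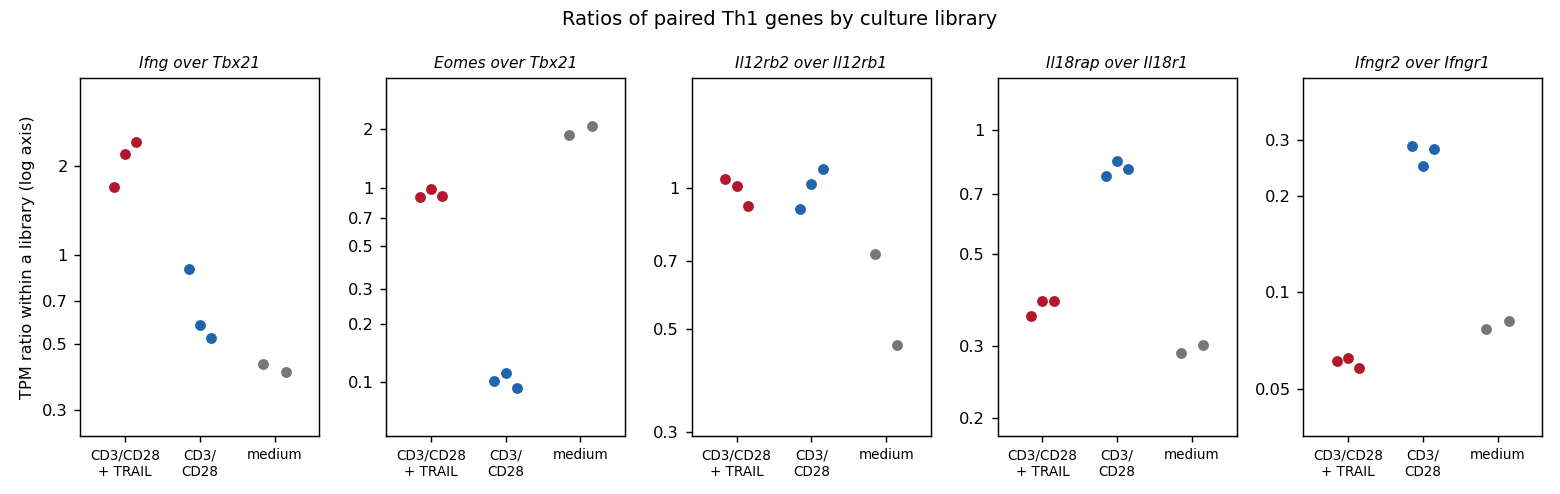
TPM ratio of 5 gene pairs within each of the 8 culture libraries, on log axes that differ between panels. Ifng over Tbx21 is above 1 only in the 3 libraries with CD3/CD28 plus TRAIL, and Il12rb2 over Il12rb1 overlaps between the groups with and without TRAIL.

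Over the 8 culture libraries, Tbx21 correlated with Il12rb1 at a Pearson r of 0.997 and with Il12rb2 at 0.995 on log2(TPM + 1), and Ifng with Tbx21 at 0.879. The libraries fall into 3 groups, so these values mainly restate the group means. Among the other genes tested, those most like Tbx21 were Pros1 (0.998), Tnfrsf9 (0.998) and Odc1 (0.997). Those most like Il12rb2 were Hspa8 (0.999), Calr (0.999) and Gem (0.997), and those most like Ifng were Socs1 (0.991), Ubxn1 (0.989) and Bst2 (0.986). Socs1, whose product restrains interferon signalling, averaged 90.4 ± 0.8 TPM with CD3/CD28 plus TRAIL and 108 ± 22 TPM with CD3/CD28 (SD, n = 3 each), and 27.2 ± 1.9 TPM in medium (SD, n = 2).

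The ligand and signalling genes of the interleukin 12 family moved in both directions with TRAIL. Of 11 genes tested outside the 10, 8 were higher and 3 lower with TRAIL against CD3/CD28, where 48.1% of all genes were higher and 28.6% lower, with a median log2 fold change of 0.72, against 0.25 for all genes. Il12a, which encodes a subunit of interleukin 12, averaged 23.02 ± 1.46 TPM with CD3/CD28 plus TRAIL, 5.63 ± 0.77 TPM with CD3/CD28 and 10.0 ± 1.2 TPM in medium (SD; n = 3, 3 and 2). Its log2 fold change with TRAIL against CD3/CD28 was 1.86 ± 0.11 (adjusted p 1.77e-06). Stat4, the factor that carries the interleukin 12 signal, averaged 83.8 ± 1.7, 24.96 ± 2.74 and 99.2 ± 4.9 TPM in the same groups and rose by 1.71 ± 0.08 with TRAIL (adjusted p 6.74e-07). In the interleukin 18 and interleukin 1 family, 8 of 11 genes were higher and 1 lower with TRAIL against CD3/CD28, against the same 48.1% and 28.6% of all genes, with a median log2 fold change of 0.46. The largest changes were those of the inhibitory kinase gene Irak3 (2.08 ± 0.12, adjusted p 1.6e-06) and of Irak2 (1.23 ± 0.08, adjusted p 2.33e-06). Irak3 averaged 30.4 ± 0.6 TPM with CD3/CD28 plus TRAIL, 6.47 ± 1.24 TPM with CD3/CD28 and 43.5 ± 1.9 TPM in medium (SD). With TRAIL it stayed below medium (adjusted p 0.0382). Irak2 averaged 66.9 ± 1.6, 28.05 ± 2.57 and 68.65 ± 2.97 TPM in the same order. With TRAIL it did not pass against medium (adjusted p 0.825). The macrophage marker sum had the order of Irak3, and the part of those cells was not tested.

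Downstream of the interferon gamma receptor, 5 of 10 signalling genes were higher and 2 lower with TRAIL against CD3/CD28, shares near the 48.1% and 28.6% of all genes. Of these, Pias1 rose by 1.29 ± 0.08 (adjusted p 2.72e-06). Of 20 interferon gamma target genes tested, many of which also respond to type I interferon, 17 were higher and 2 lower with TRAIL against CD3/CD28, with a median of 0.84, against 0.25 for all genes. Of the 20, 18 were higher and 0 lower with CD3/CD28 plus TRAIL against medium, where 7.25% of all genes were higher and 9.93% lower. With CD3/CD28 against medium 12 were higher and 3 lower, where 27.5% of all genes were higher and 49% lower. The largest called changes with TRAIL were those of Ciita, the activator of class II genes, which rose by 2.83 ± 0.16 (adjusted p 1.4e-06), and of Ido1, which fell by 2.57 on the log2 scale (SE 0.16, adjusted p 2.25e-06). Ciita averaged 43.0 ± 1.9 TPM with CD3/CD28 plus TRAIL, 5.32 ± 1.56 TPM with CD3/CD28 and 38.9 ± 1.5 TPM in medium, an order that the B cell and macrophage marker sums shared in part, and the part of those cells was not tested. Ido1 averaged 0.772 ± 0.357 TPM with CD3/CD28 plus TRAIL, 9.37 ± 0.58 TPM with CD3/CD28 and 1.60 ± 0.30 TPM in medium.

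Of 14 other Th1 effector cytokines and trafficking genes, 7 were lower and 5 higher with TRAIL against CD3/CD28, where 28.6% of all genes were lower and 48.1% higher. Il2, the growth factor gene of activated T cells, had 1.06, 0.458 and 0.332 TPM with CD3/CD28 plus TRAIL, 22.2, 12.3 and 9.03 TPM with CD3/CD28, and 1.24 and 1.04 TPM in medium, and fell by 3.20 on the log2 scale (SE 0.30, adjusted p 2.48e-05). Its level with CD3/CD28 plus TRAIL did not differ from medium beyond the threshold (log2 fold change −0.43 ± 0.34, adjusted p 0.437), in contrast to Ifng. The chemokine gene Ccl5 rose by 2.17 ± 0.07 (adjusted p 1.01e-07). Among 13 factors that act with T-bet or Runx3, 5 were higher and 5 lower, beside the same shares of all genes, with the T-bet partner Hlx falling by 1.51 on the log2 scale (SE 0.09, adjusted p 1.98e-06) and Stat4 rising as given above. Of 12 factors of other helper fates and Runx3 antagonists, 8 were higher and 2 lower with TRAIL against CD3/CD28, where 48.1% of all genes were higher and 28.6% lower. Only 1 of the 12 passed with CD3/CD28 plus TRAIL against medium, lower, where 17.2% of all genes passed. Bcl6, the factor of follicular helper cells, rose by 3.18 ± 0.11 (adjusted p 1.29e-07) and Rora, a factor of Th17 cells, by 1.89 ± 0.16 (adjusted p 1.54e-05). Bcl6 averaged 58.8 ± 2.3 TPM with CD3/CD28 plus TRAIL, 5.65 ± 1.01 TPM with CD3/CD28 and 54.6 ± 0.4 TPM in medium (SD). Rora averaged 25.2 ± 0.9, 6.21 ± 1.67 and 24.8 ± 1.6 TPM in the same order. Neither passed with CD3/CD28 plus TRAIL against medium (adjusted p 0.636 and 0.957). The B cell marker sum was also lowest with CD3/CD28, and the part of those cells in the Bcl6 level was not tested.

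In the mouse experiment, the deletion of the TRAIL receptor was first looked for in its gene, Tnfrsf10b. It read 2.042 and 3.498 TPM in Lck-Cre floxed mice given TRAIL, 1.64, 1.46 and 2.31 TPM in floxed mice given TRAIL and 1.82 TPM with vehicle, so that a lower level was not seen, and a total per gene need not show the loss of part of it. The libraries labelled CD4 T cell also held high levels of other cells' markers. The 10 neutrophil markers summed to 73352 to 97304 TPM in the 3 libraries of lane 2 and to 17822 to 27075 TPM in the 3 of lane 4, and the 8 CD4 T cell markers to 470 to 1747 TPM. No marker of the neutrophil, macrophage, B cell or erythroid lists was at 0 in any mouse library. The same held for all 18855 genes listed for the mice, so it says nothing about these cells. Lane 2 held replicate 1 of each group and lane 4 the rest. Because the neutrophil marker sum and the lane differ together, they cannot be told apart as sources of a difference between these libraries. The CD4 T cell marker sums overlapped between lanes, at 470 to 1747 TPM on lane 2 and 1047 to 1698.5 TPM on lane 4.

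Most of the Th1 genes separated by lane, as did many of all genes tested. For 7 of the 10 genes the lanes did not overlap, 6 of them higher on lane 4, where 46.8% of all 14176 genes tested had lanes that did not overlap. Most of those genes were likewise higher on lane 4, 5106 against 1522 that were higher on lane 2. Ifng had 1.54 TPM on lane 2 and 4.63 TPM on lane 4 in Lck-Cre floxed mice given TRAIL, against 1.39 TPM on lane 2 and 7.19 and 3.59 TPM on lane 4 in floxed mice given TRAIL, and 1.16 TPM with vehicle on lane 2. These levels rest on 20 to 98 reads per library. Tbx21 had 6.20 and 14.8 TPM in the Lck-Cre libraries, against 4.72, 17.1 and 13.0 TPM in the floxed libraries given TRAIL and 5.80 TPM with vehicle, with the lane 2 library first in each group. For Ifng and Tbx21 the lane 2 libraries were all below the lane 4 libraries, and the Lck-Cre and floxed TRAIL groups overlapped.

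In each of the 3 mouse comparisons 0% of genes were called by limma and 0 of the 10 Th1 genes, and the authors' deposited table, whose comparison is not named, holds 0 genes with an adjusted p under 0.05. With Lck-Cre floxed TRAIL against floxed TRAIL, 0.748% of the 14176 genes and 0 of the 10 Th1 genes had an unadjusted p under 0.05. With Lck-Cre floxed TRAIL against floxed vehicle these were 0.931% and 0 of 10, and with floxed TRAIL against floxed vehicle 3.99% and 1 of 10, Il18r1. The vehicle group has 1 library, which the fit takes to vary like the others. With Lck-Cre floxed TRAIL against floxed TRAIL the log2 fold change was −0.25 ± 0.61 for Ifng, −0.09 ± 0.60 for Tbx21, −0.16 ± 0.62 for Il12rb1 and −0.31 ± 0.40 for Il12rb2 (adjusted p 1 each). With lane as a term, an alternative, they were −0.03 ± 0.31 for Ifng, 0.13 ± 0.19 for Tbx21, 0.04 ± 0.38 for Il12rb1 and −0.19 ± 0.21 for Il12rb2 (adjusted p 0.976, 0.84, 0.978 and 0.792).

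Il18r1 was 1 of the 10 genes, and the only one, whose Lck-Cre and floxed TRAIL groups did not overlap, as for 11.3% of all genes tested. It had 58.5 and 59.8 TPM in Lck-Cre floxed mice given TRAIL, against 41.0, 38.3 and 51.6 TPM in floxed mice given TRAIL and 67.1 TPM with vehicle. The log2 fold change of Lck-Cre floxed TRAIL against floxed TRAIL was 0.44 ± 0.20 (unadjusted p 0.0679, adjusted p 1), and it was 0.50 within lane 2 and 0.42 within lane 4, with 1 Lck-Cre library on each. After scaling to the CD4 T cell markers it was −0.16. Its partner Il18rap was higher on lane 2, unlike the 6 genes that were higher on lane 4, with 108 TPM on lane 2 and 50.8 TPM on lane 4 in Lck-Cre floxed mice given TRAIL, against 103 TPM on lane 2 and 52.04 and 49.96 TPM on lane 4 in floxed mice given TRAIL and 90.6 TPM with vehicle on lane 2. The neutrophil marker sum was likewise higher on lane 2, and its part in the Il18rap level was not tested.

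The remaining Th1 genes gave no difference beyond the spread of the mouse libraries. Eomes had 4.92 and 15.6 TPM in Lck-Cre floxed mice given TRAIL, against 4.08, 10.1 and 11.9 TPM in floxed mice given TRAIL and 8.94 TPM with vehicle. Runx3 had 54.9 and 88.9 TPM, against 34.8, 94.9 and 82.5 TPM and 65.4 TPM in the same groups. Both were lower on lane 2 in every group that had both lanes. The receptor genes Il12rb1, at 3.61 to 17.4 TPM, and Il12rb2, at 2.89 to 7.56 TPM over all mouse libraries, were likewise lower on lane 2. Ifngr1 ranged from 232 to 356 TPM and Ifngr2 from 48.0 to 60.1 TPM over all mouse libraries with lanes that overlapped. In the authors' deposited table, the 10 genes changed by −0.44 to 0.26 on the log2 scale in the mouse comparison, with Il18r1 at −0.44. Across genes, that unnamed fold change correlated at 0.804 with the difference of floxed TRAIL minus Lck-Cre floxed TRAIL computed here, so that a negative value there would be a higher level in Lck-Cre libraries. None of the list genes described for culture was called in a mouse comparison. For Lck-Cre floxed TRAIL against floxed TRAIL, the median log2 fold change of the 18 interferon gamma target genes tested was −0.70. For all genes it was −0.04. The spread between libraries was wide for some of these target genes and smaller for others. Over the floxed TRAIL libraries Gbp2 averaged 163 ± 119 TPM and B2m 3167.5 ± 465.5 TPM (SD, n = 3). The 2 groups also differ in their make-up by lane, whose part in this median was not tested.

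**Figure D5:**
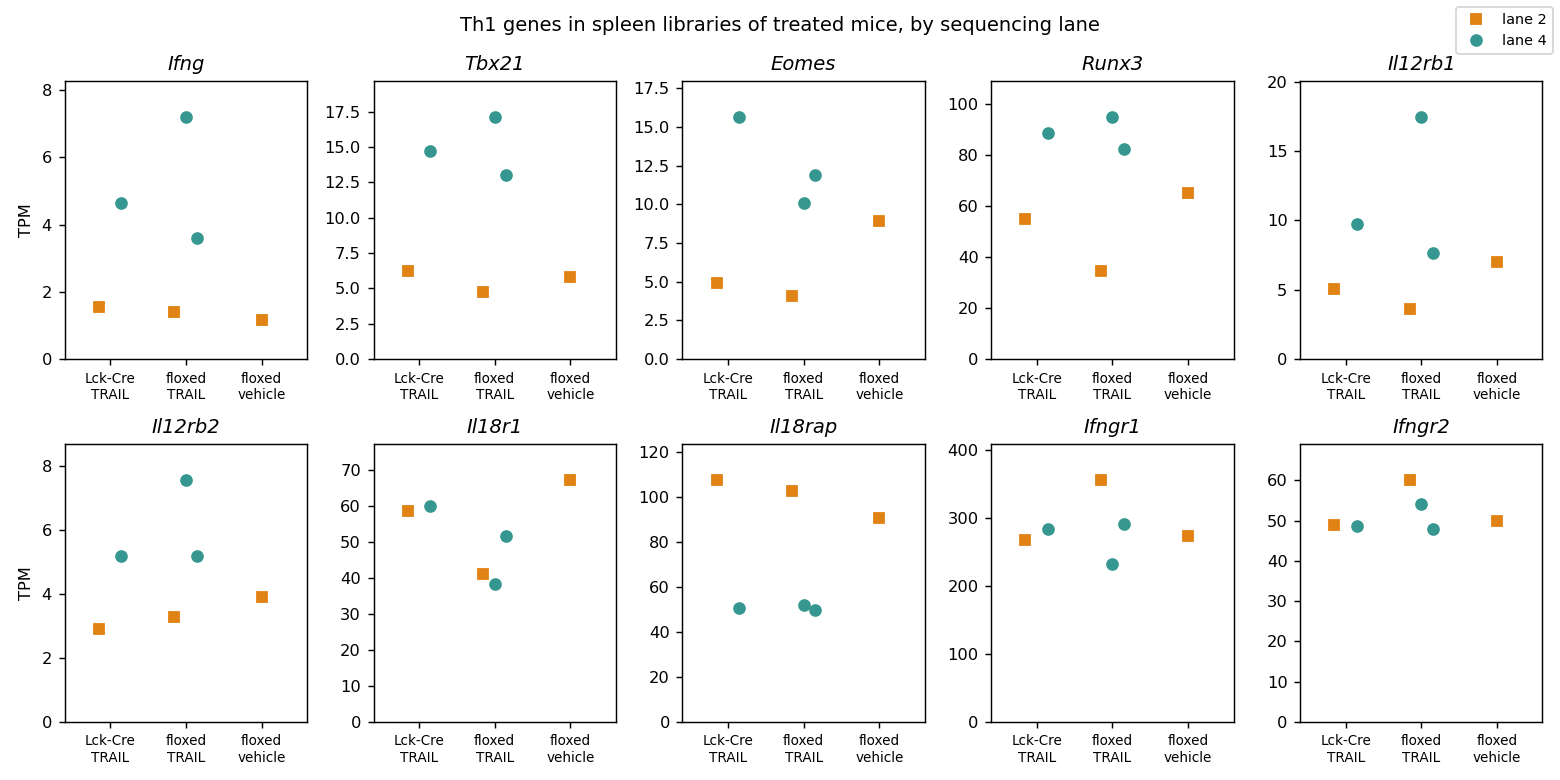
TPM of the 10 Th1 genes in each of the 6 mouse libraries, with Lck-Cre floxed TRAIL, floxed TRAIL and floxed vehicle from left to right and the sequencing lane shown by colour and shape. Ifng and Tbx21 are lower in all 3 lane 2 libraries, and Il18rap is higher there.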

How the data were processed

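RNA was extracted with Trizol and polyadenylated libraries were prepared with an Agilent SureSelect XT HS2 kit, per the labels. The authors deposited TPM, a unit named in the culture headers and inferred for the mice from column sums of 1000000. TPM times gene length gave whole reads in every library (largest deviation 2.33e-10), which gave the depths of 19.2 to 56.9 M (1 M is 1000000). Log2 fold changes with p-values and adjusted p-values of the authors stand beside the TPM. For the mice the authors also deposited gene set tables (score, set size as a count, q-value). GRCm38.p6 is the build named in the submitters' processing notes, which list, with no role or order, the tools DESeq2 1.26.0, StringTie 2.1.4, HISAT2 2.1.0, Trimmomatic 0.36, SAMtools 1.2 and bcl2fastq. The 14 z-score columns were not used.

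limma 3.58.1 in R 4.3.3 was fitted on log2(TPM + 1) with a variance trend, all groups of an experiment in 1 fit, over the genes whose mean reached 1 TPM (14035 in culture, 14176 in mice), with Benjamini-Hochberg adjustment and a threshold of 0.05. The fit was tested on simulated data. Standard errors of remaining shares used the delta method. Groups, replicate numbers and lanes came from titles and descriptions; medium replicate 2 has the number 3 in its bracketed name, and the bracketed name of Lck-Cre replicate 1 carries no TRAIL tag. The 10 genes, gene lists, marker lists and tests were chosen with earlier results of these data known. Named genes were the 10, the 3 genes most correlated over the culture libraries with each of Ifng, Tbx21 and Il12rb2, and in each list the 2 called genes with the largest change with TRAIL. Cd4, Cd3e, Klrd1 and Ncr1 were named to show differences within marker lists, and Gbp2 and B2m to show spread. A result for 1 of these genes is not reported here. Alternatives were pseudocounts, filters, scalings, the variance trend, left-out libraries, a replicate block, a lane term and fits of only the groups compared; scaling to the geometric mean of the 8 CD4 T cell markers was added after seeing the data.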

Additional observations from a re-analysis of the deposited data

How the results depend on the processing

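Precision is limited by 1 to 3 libraries a group, by the lane in mice and, for Ifng in mice, by 20 to 98 reads. In culture, the calls and directions of Ifng, Tbx21, Il12rb1 and Il12rb2 held under every alternative in all 3 comparisons. Of the single-gene results there, 149 of 160 with CD3/CD28 against medium, 157 of 160 with CD3/CD28 plus TRAIL against CD3/CD28 and 143 of 160 with CD3/CD28 plus TRAIL against medium kept direction and side of the threshold. Scaling by the median of ratios moved the median log2 fold change of all genes by −0.24 with CD3/CD28 plus TRAIL against CD3/CD28 and by 0.30 with CD3/CD28 against medium. The share of calls that were higher became 50.4% in place of 62.7%, and 50% in place of 35.9%. In CD3/CD28 plus TRAIL against medium it became 53.1% in place of 42.2%. Scaling to the CD4 T cell markers moved the medians by 0.19 with CD3/CD28 plus TRAIL against CD3/CD28 and by 0.27 with CD3/CD28 plus TRAIL against medium. It reversed Runx3 with CD3/CD28 plus TRAIL against CD3/CD28 (0.010), Il18r1 and Ifngr2 with CD3/CD28 plus TRAIL against medium (0.070 and 0.166), and the remaining shares of the falls of Il18r1 (−5.601%) and Ifngr2 (−38.83%). The median remaining share of the 6 genes that rose was 37.9% on TPM and 61.6% on the log2 scale, and 30.3% to 40.5% with a library left out.

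The number of genes called with CD3/CD28 plus TRAIL against medium was 2411, but 4668 after marker scaling, 5078 with only these groups in the fit and 915 to 5416 with a library left out, the highest without CD3/CD28 replicate 1. With the replicate block it was 1356. Deviations of same-numbered culture libraries from their group means correlated at −0.134 to 0.0777. With so few libraries a group these deviations cancel each other within the group. The values therefore cannot show whether the numbers pair the samples. The block changed the calls of Eomes with CD3/CD28 against medium and of Ifngr1 with CD3/CD28 plus TRAIL against medium, and in mice the block equals the lane in part. In mice, 5 genes were called with floxed TRAIL against floxed vehicle after marker scaling and 17 with Lck-Cre floxed TRAIL against floxed vehicle in a fit of those groups alone. With Lck-Cre floxed TRAIL against floxed TRAIL no alternative called a Th1 gene, and signs of these uncalled changes turned. With a library left out, the changes lay between −0.820 and 0.330 for Ifng, −0.654 and 0.475 for Tbx21, −0.605 and 0.886 for Eomes, −0.336 and 0.448 for Runx3, −0.641 and 0.358 for Il12rb1, −0.649 and 0.023 for Il12rb2, −0.339 and 0.731 for Il18rap, and −0.223 and 0.086 for Ifngr1. Tbx21 was 0.066 with the replicate block and 0.132 with lane as a term, where Il12rb1 was 0.040. Within lane 2, Ifng was 0.085, Tbx21 0.332 and Il12rb1 0.398. Within lane 4, Il18rap was −0.006 and Ifngr1 0.127. Marker scaling gave −0.407 for Eomes, −0.500 for Runx3, −0.164 for Il18r1 and −0.412 for Il18rap. The causes were not tested.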
